A study of Drosophila melanogaster with 2 samples.

Results

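Of the 3860 strongest ChIP-seq regions of each of 2 replicate libraries for the Drosophila transcription factor kay, 773 in replicate 2 (20.0%) and 940 in replicate 4 (24.4%) overlapped none of the other replicate's 3860 strongest by as much as 1 bp. These 1713 regions, among 60000 candidate regions in both lists, are called members here, and the 3087 regions of replicate 2 and 2920 of replicate 4 that did overlap are called shared regions. Members were thus chosen by rank on the signal value that the authors' peak caller gave each of the 30000 candidates of a list, and the number 3860 is the number of peaks in the authors' irreproducible discovery rate (IDR) list. Because the signal chose the members, everything taken from ranks, signals or the IDR list is given as a description without a test. Location, motifs, base composition and chromosome, which the ranking did not use, were tested.

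The study profiled whole Drosophila melanogaster embryos of 0 to 24 h, males and females pooled, of a transgenic strain, kay-GFP, in which the C-terminal end of kay bears GFP. Sonicated chromatin (fragments from 200 to 800 bp) was immunoprecipitated through the GFP tag. Whole embryos mix cell types and ages, so binding is averaged over them. There was 1 group, with 2 biological replicates labelled 2 and 4, both from the same line, and no second condition. The 2 candidate lists were made with the same control file, and sequencing depth is unknown because neither list holds reads.

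kay is the only Fos protein of the fly. It is a basic leucine zipper (bZIP) factor that pairs with Jra, the fly Jun, to form AP-1, which binds the palindrome TGACTCA or its equivalent TGAGTCA. In the embryo AP-1 is known for its place at the end of the Jun kinase (JNK) cascade in dorsal closure, the movement that seals the epidermis over the back, and in epidermal wound repair. The JNK cascade runs from the TNF-like ligand egr and its receptor grnd through kinases to kay and Jra, and the phosphatase puc, itself an AP-1 target, switches it off.

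AP-1 sites were rare near the summits of every set. Within 50 bp they were found in 2.46% of replicate 2 and 3.94% of replicate 4 members. The shares were 4.83% and 5.24% in shared regions, and 2.31% and 2.53% in all candidates of the 2 lists. Sites from the 6 strongest members of each set that held one are shown, because the site, unlike the rank, is a property of the DNA. They cover 2 of the 6 in replicate 2 and all 6 in replicate 4, and the other 4 sites of replicate 2, the strongest among them, are not printed here. In the lines below, capitals mark the AP-1 site, letters are from RefSeq's Release 6 genome assembly, whose arm lengths match dm6, and coordinates are 1-based in dm6 on the plus strand.
replicate 2, Myo31DF intron (chr2L:10503906-10503920, ranks 2136 in replicate 2 and 4717 in replicate 4): agcaTGAGTCAcgga
replicate 2, CG9663 intron (chr2L:3299791-3299805, ranks 2861 in replicate 2 and 5172 in replicate 4): agcgTGAGTCAcatg
replicate 4, hwt intron (chrX:12546216-12546230, ranks 1575 in replicate 4 and 6754 in replicate 2): acgaTGAGTCAtgaa
replicate 4, hth intron (chr3R:10610539-10610553, ranks 1580 in replicate 4 and 5547 in replicate 2): cccaTGAGTCAtgcg
replicate 4, crp intron (chr2L:16286576-16286590, ranks 1588 in replicate 4 and 9807 in replicate 2): ccctTGACTCAtgtt
replicate 4, CG2993 intron (chr3R:7808991-7809005, ranks 1601 in replicate 4 and 9254 in replicate 2): cccgTGAGTCAtgga
replicate 4, Hr4 intron (chrX:1948359-1948373, ranks 1639 in replicate 4 and 14407 in replicate 2): caagTGAGTCAtttt
replicate 4, CG43169 intron (chr3L:8865676-8865690, ranks 2133 in replicate 4 and 3896 in replicate 2): cgagTGACTCActcg

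A second set shows examples of the DNA replication-related element (DRE), the promoter motif TATCGATA that the factor Dref binds, in capitals. Of the motifs other than AP-1 it had the lowest unadjusted p between the 2 sets of members, although it did not pass the adjusted test.
replicate 2, EMC3 promoter (chr2L:10732455-10732470, ranks 2095 in replicate 2 and 4037 in replicate 4): cattTATCGATAgctt
replicate 2, CG10038 promoter (chr3R:12350686-12350701, ranks 2618 in replicate 2 and 5298 in replicate 4): taggTATCGATAgcga
replicate 2, PolA1 promoter (chr3R:21671802-21671817, ranks 3430 in replicate 2 and 3991 in replicate 4): gtaaTATCGATAgtgt
replicate 2, AlaRS promoter (chr2L:8381772-8381787, ranks 3509 in replicate 2 and 6791 in replicate 4): gagaTATCGATAgatt
replicate 4, RpS29 promoter (chr3R:9778053-9778068, ranks 1775 in replicate 4 and 5564 in replicate 2): aaaaTATCGATActgc
replicate 4, Rack1 promoter (chr2L:7827310-7827325, ranks 1805 in replicate 4 and 6259 in replicate 2): aaacTATCGATAgttt
replicate 4, kibra promoter (chr3R:14724338-14724353, ranks 2174 in replicate 4 and 6561 in replicate 2): ttgaTATCGATAttat
replicate 4, mRpS5 upstream region (chr3L:24536175-24536190, ranks 2453 in replicate 4 and 9668 in replicate 2): attcTATCGATAttag

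Most members stood in the lower part of their own top list, and most had a counterpart among the other replicate's candidates. The median own rank was 3074 for replicate 2 members and 2994 for replicate 4 members. Only 12 replicate 2 members and 5 replicate 4 members stood among ranks 1 to 965, against 457 and 520 among ranks 2896 to 3860. In the other replicate's list, the strongest overlapping candidate had a median rank of 5456 for the 750 replicate 2 members that had one (quartiles 4510 and 7236). For the 895 replicate 4 members with one it was 5774 (quartiles 4530 and 8182). It lay between ranks 3861 and 5790 for 423 of the 773 replicate 2 members (54.7%) and 453 of the 940 replicate 4 members (48.2%). It lay beyond rank 15440 for 23 replicate 2 members (2.98%) and 54 replicate 4 members (5.74%). No overlapping candidate existed among the other list's 30000 for 23 replicate 2 members (2.98%) and 45 replicate 4 members (4.79%).

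**Figure D1:**
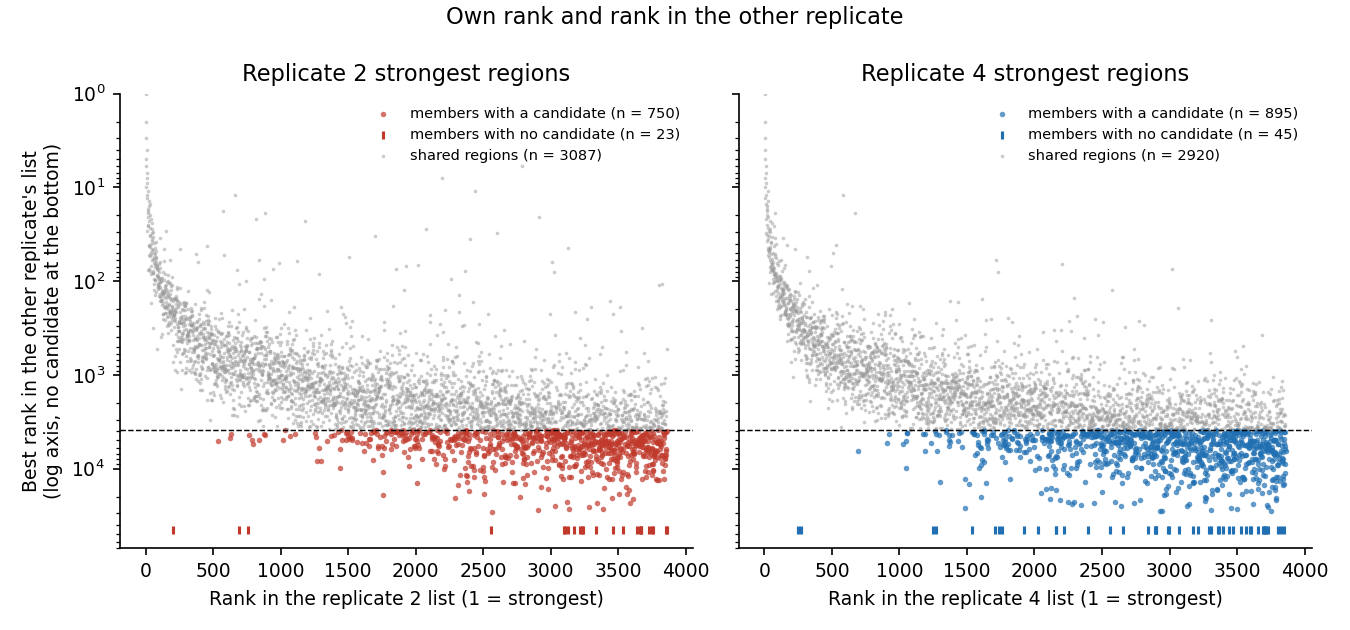
Rank of each of the 3860 strongest regions in its own list (x axis) against the best rank of an overlapping candidate in the other replicate's list (y axis, log scale, strongest at the top), for replicate 2 (left) and replicate 4 (right). Coloured points are members, ticks at the bottom are members with no overlapping candidate, grey points are shared regions, and the dashed line is rank 3860; members crowd at the weak end of the x axis and just under the line.

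Where a counterpart existed, the summits lay close together. The median distance between the summit of a member and that of its strongest overlapping candidate was 58 bp for replicate 2 members and 46 bp for replicate 4 members, against 36 bp and 34 bp for the shared regions of the 2 lists. It was at most 100 bp for 529 of 750 replicate 2 members (70.5%) and 664 of 895 replicate 4 members (74.2%). A region of the other replicate's top list lay within 1 kb of 132 replicate 2 members (17.1%) and 193 replicate 4 members (20.5%). Of the members, 451 in replicate 2 (58.3%) and 396 in replicate 4 (42.1%) overlapped a peak of the IDR list, beside 18.1% of all replicate 2 candidates and 15.6% of all replicate 4 candidates. That list rests on the same signals, so nothing is read from these shares. In the pooled list, the median rank was 3665 for the 765 replicate 2 members found there and 4054 for the 921 replicate 4 members found there.

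At the threshold the signal was nearly flat. The last 3 replicate 2 members had signals of 58.06 near rogdi, 58.03 near Krn and 58.02 near CG31407, and the first 3 regions outside had 58.01 near Prps, 58.00 near CG10232 and 58.00 near Mnt. The last 3 replicate 4 members had 39.97 near apt, 39.96 near 18w and 39.96 near CG15071, and the first 3 outside had 39.95 near Ssdp, 39.95 near ppk and 39.94 near su(Hw). The Ssdp region shows how near the line some members lie. It is a replicate 2 member at rank 1816 because its counterpart held rank 3861 in replicate 4.

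The 12 strongest replicate 2 members included 3 narrow regions beside other top regions. The strongest was a region of 152 bp at the promoter of chn, a zinc-finger transcription factor gene, at rank 204, with no overlapping candidate in replicate 4 and another top region 19 bp away at rank 339. Regions of 227 bp near tara, which encodes a co-regulator of transcription and cell cycle progression, and of 123 bp at the promoter of papi, a Tudor-domain gene of the piRNA pathway, followed the same form at ranks 693 and 757. Each touched or lay within 16 bp of another top region, at ranks 65 and 170. All 3 narrow regions also lay within 1 kb of a replicate 4 top region and overlapped a peak of the IDR list. Their pooled ranks were 232 (chn), 59 (tara) and 162 (papi). The usual width of a region was 484 bp in this list, and 5 of the 773 replicate 2 members (0.647%) were narrower, against 465 of the 3087 shared regions (15.1%).

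The other strong replicate 2 members were full-width regions whose replicate 4 counterparts lay below the threshold. At SIFaR, the receptor gene for the neuropeptide SIFamide, the ranks were 537 in replicate 2 and 5051 in replicate 4. At capt, which encodes an actin-binding protein, they were 631 and 4326 in the same order, and at Septin2, which encodes a cytoskeletal GTPase, 623 and 4686. Regions at jp (junctophilin), tacc (a centrosomal protein) and the Hox gene Abd-B had replicate 2 ranks of 797, 762 and 836 and replicate 4 ranks of 5517, 4370 and 4945. A second tara region, in an intron, had ranks 785 and 5014. Atpalpha, the sodium pump subunit that is also a septate junction component, had ranks 877 and 4229. crb, the apical polarity determinant of epithelia, had 882 and 4421. Counterparts of these 9 regions in replicate 4 stood between ranks 4229 and 5517.

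Among the 12 strongest replicate 4 members, 3 were narrow regions. A region of 144 bp in gce, a juvenile hormone receptor gene, held rank 246, overlapped another top region of the same list at rank 1418, and had no overlapping replicate 2 candidate. A region of 200 bp at the promoter of CG31523, rank 269, had an overlapping candidate neither in replicate 2 nor in the pooled list, and lay 69 bp from a top region at rank 342. A region of 133 bp nearest to CG7878 had ranks 925 in replicate 4 and 4255 in replicate 2. All 3 narrow regions lay within 1 kb of a replicate 2 top region. Of these, only the gce region overlapped a peak of the IDR list, and its pooled rank was 243. The usual width was 400 bp in this list, and 5 of the 940 replicate 4 members (0.532%) were narrower, against 382 of the 2920 shared regions (13.1%).

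The other 9 had the usual width. Pax, the paxillin gene of integrin adhesion sites, had ranks 696 in replicate 4 and 6450 in replicate 2. pins, which orients the mitotic spindle, had 1030 and 5413. Tlk, the Tousled-like kinase gene, had 1046 and 5071. Atet, an ABC transporter gene, had 1047 and 9896, the widest gap among these 9. The chaperone gene mrj (909 and 5375), the deadenylase subunit gene PAN3 (1053 and 4217), CG11248 (1057 and 4168), the kinase gene Nuak (1171 and 4301) and CG43844 (1187 and 4248) made up the rest.

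Some members had no counterpart although they were full-width regions. In replicate 2 these began at the promoter of the F-box gene Fbxl7 at rank 2557, which had none in the pooled list either, followed by CG1824 at rank 3098 and Npl4, a cofactor of protein degradation, at rank 3105. In replicate 4 they began at much stronger ranks. The promoter of Alh, a chromatin-associated zinc-finger gene, held rank 1248, that of the condensin subunit gene Cap-D2 rank 1273, a region upstream of the hexokinase gene Hex-A rank 1535 and an intron near CG15143 rank 1711. The Cap-D2 and CG15143 regions had no overlapping candidate in the pooled list either. The Alh region, by contrast, overlapped an IDR peak (pooled rank 1422) and touched or overlapped another replicate 4 top region. Both the Alh and the Hex-A regions lay within 1 kb of a replicate 2 top region.

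Both sets of members lay less often at promoters than the shared regions did. A summit within 500 bp of a protein-coding transcription start site (TSS) was found for 337 of 773 replicate 2 members (43.6%, exact 95% interval 40.1 to 47.2), against 1769 of 3087 shared regions in that list (57.3%). The odds ratio, the odds of a promoter among members over the odds among shared regions, was 0.576 (95% interval 0.491 to 0.675, adjusted p = 1.8e-10, two-sided Fisher's exact test with Benjamini-Hochberg adjustment over 18 location tests). For replicate 4 members it was 464 of 940 (49.4%, interval 46.1 to 52.6), against 1662 of 2920 shared regions (56.9%), an odds ratio of 0.738 (0.637 to 0.855, adjusted exact p = 0.00049). All candidates had 31.5% in replicate 2 and 28.8% in replicate 4, so members stood between shared regions and the candidates as a whole. The median distance to the nearest TSS was 771 bp for replicate 2 members and 536 bp for replicate 4 members, against 321 bp and 298 bp for the shared regions of the 2 lists.

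The p values in these comparisons set regions of 2 libraries against each other. Regions are not replicates of a condition, some overlap each other, the shared regions of the 2 lists are mostly the same loci, and members are weaker than shared regions, with a median signal of 66.0 against 95.2 in replicate 2 and 46.7 against 69.6 in replicate 4. Among regions at ranks 1931 to 3860 alone, the promoter share of replicate 2 members stayed below that of shared regions (44.4% against 54.3%, adjusted p from Fisher's exact test 0.00063 over the same 18 tests). That of replicate 4 members no longer passed (48.4% against 52.1%, adjusted exact p = 0.388).

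Replicate 2 members had fewer promoter summits than replicate 4 members, at 43.6% against 49.4%, but the difference did not pass the adjusted test (odds ratio 0.793, interval 0.655 to 0.960, adjusted p = 0.117, Fisher's exact test). Away from promoters, both sets were mostly intronic. Of such summits, 292 of 436 replicate 2 members (67.0%) and 338 of 476 replicate 4 members (71.0%) lay in introns, against 70.6% and 70.0% of the shared regions. Intergenic sequence held 29.8% and 25.6% of them, against 26.1% and 26.9%. Coding exons held 1 replicate 2 member and 2 replicate 4 members, and untranslated regions 13 and 14. None of the 15 tests on these classes passed, and 0 had an unadjusted p under 0.05.

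**Figure D2:**
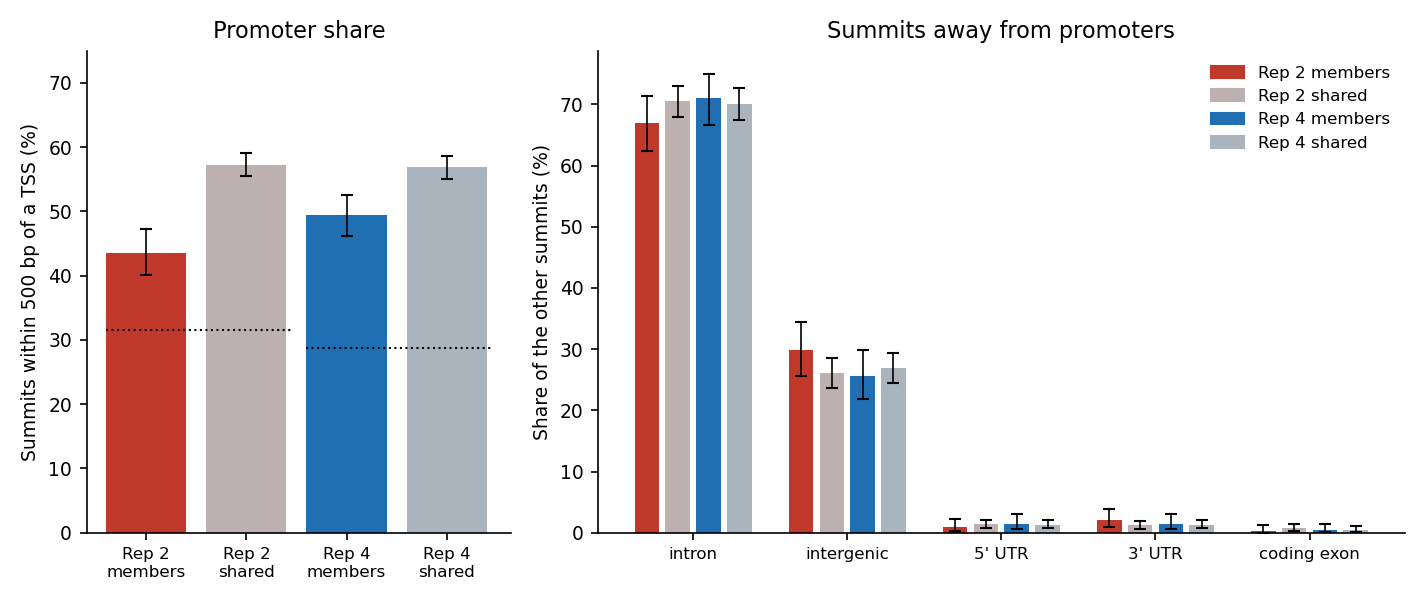
Left, percent of summits within 500 bp of a TSS in replicate 2 members, replicate 2 shared regions, replicate 4 members and replicate 4 shared regions, with dotted lines for all candidates of each list; right, where the remaining summits lay, as percent of those summits. Error bars are exact 95% binomial intervals for counting error; both member bars (43.6% and 49.4%) stand below their shared bars (57.3% and 56.9%), and the classes on the right differ little.

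Replicate 2 members carried AP-1 sites about as rarely as candidates in general. An AP-1 site within 50 bp of the summit was found in 19 of 773 replicate 2 members (2.46%, interval 1.49 to 3.81), against 149 of 3087 shared regions (4.83%) and 2.31% of all replicate 2 candidates. The odds ratio was 0.497 (0.306 to 0.806, adjusted p = 0.00893, Fisher's exact test adjusted over 3 tests). In replicate 4, 37 of 940 members had a site (3.94%, interval 2.79 to 5.38), against 153 of 2920 shared regions (5.24%) and 2.53% of all candidates, which did not pass (odds ratio 0.741, 0.513 to 1.07, adjusted exact p = 0.119). Between the sets the odds ratio of replicate 2 over replicate 4 members was 0.615 (0.351 to 1.08, adjusted exact p = 0.119). Within ranks 1931 to 3860 the replicate 2 difference did not pass either (2.77% against 4.67%, adjusted exact p = 0.154). It was also lost for the 322 members that overlap no IDR peak (15 with a site, odds ratio 0.963).

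AP-1 sites were also counted at promoters and away from them. Of the 37 replicate 4 members with a site, 31 were away from promoters, where 6.51% of 476 members had one, against 6.04% of 1258 shared regions (odds ratio 1.08, adjusted p = 0.737, Fisher's exact test). At promoters, 6 of 464 replicate 4 members had one (1.29%), against 77 of 1662 shared regions (4.63%, odds ratio 0.270, 0.117 to 0.623, adjusted exact p = 0.00172). Replicate 2 members had a lower share than shared regions in both places, past the threshold only away from promoters. Away from promoters 12 of 436 had a site (2.75%), against 73 of 1318 shared regions (5.54%, odds ratio 0.483, 0.260 to 0.898, adjusted exact p = 0.0299). At promoters 7 of 337 had one (2.08%), against 76 of 1769 (4.30%, adjusted exact p = 0.0978). Of all replicate 2 candidates, 179 of 9463 at promoters (1.89%) and 514 of 20537 elsewhere had a site. Replicate 2 members thus stood near all candidates in both places, and the shared regions stood above them. Away from promoters, replicate 2 members also had fewer sites than replicate 4 members (odds ratio 0.406, 0.206 to 0.802, adjusted exact p = 0.0231). Whether the location changes the odds ratio was not tested.

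**Figure D3:**
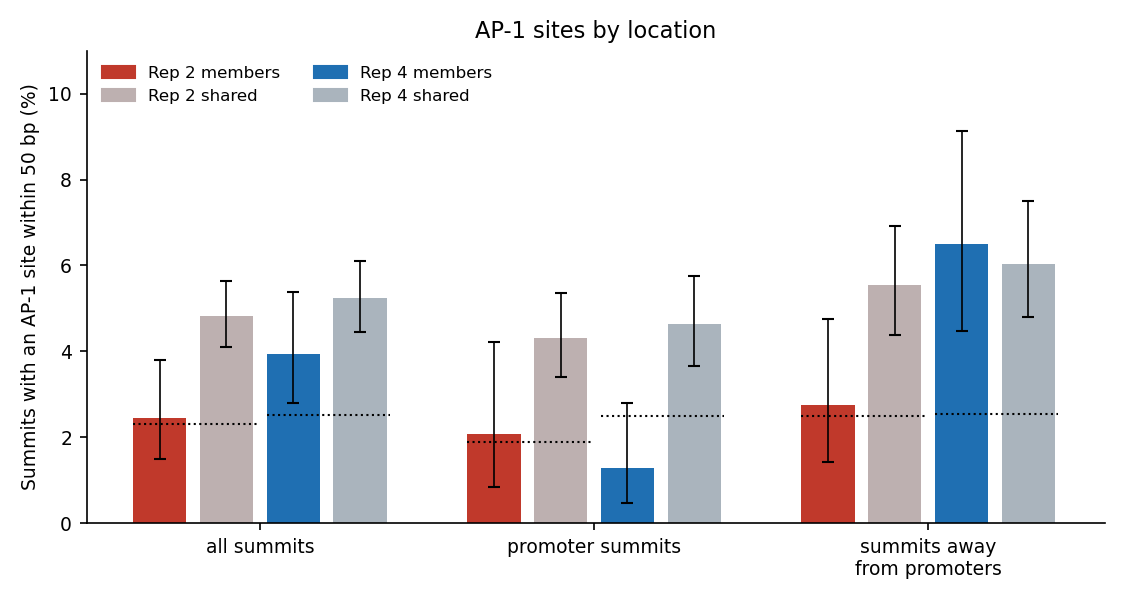
Percent of summits with TGACTCA or TGAGTCA within 50 bp, for all summits, promoter summits and summits away from promoters, in replicate 2 members, replicate 2 shared regions, replicate 4 members and replicate 4 shared regions. Error bars are exact 95% binomial intervals, dotted lines are all candidates of the list; away from promoters replicate 4 members (6.51%) stand with the shared regions (6.04%) and replicate 2 members (2.75%) near all candidates.

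The strongest replicate 2 member with a site, whose sequence is not printed, lay at CG15673 (ranks 1961 in replicate 2 and 6173 in replicate 4), with the site 2 bp from the summit. It was followed by Myo31DF, the myosin gene that sets left-right asymmetry, pain, a TRP channel gene of nociception, CG13510, the cytochrome P450 gene Cyp6a14, and CG9663. In replicate 4 the 6 strongest with a site were all intronic. They lay at hwt, at hth, a homeodomain cofactor of Hox proteins, at crp, a basic helix-loop-helix gene, at CG2993, at the nuclear receptor gene Hr4, and at CG43169. Their sites lay 4 to 45 bp from the summits. All 12 sites were single within the window.

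No other motif passed the adjusted test. Of 42 tests (14 motifs, 3 comparisons), 0 passed Fisher's exact test after adjustment and 8 had an unadjusted p under 0.05, of which 5 set replicate 4 members against shared regions, 3 set replicate 2 against replicate 4 members and 0 set replicate 2 members against shared regions. The lowest adjusted p was 0.124, reached by 3 motifs. The DRE (TATCGATA) was present in 10 replicate 2 members (1.29%) and 32 replicate 4 members (3.40%), an odds ratio of 0.372 (0.182 to 0.761), beside 1.03% and 1.02% of all candidates. The palindrome CAGCTG, an E-box bound by basic helix-loop-helix factors, was in 59 replicate 4 members (6.28%), against 119 shared regions (4.08%), beside 4.49% of all candidates (odds ratio 1.58, 1.14 to 2.17). TATAAA, the core of the TATA box, was in 138 replicate 4 members (14.7%), against 537 shared regions (18.4%), beside 13.9% of all candidates (odds ratio 0.764, 0.623 to 0.936).

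Of the DREs in replicate 4 members, 26 were at promoters and 6 away from them, where 6 of 476 members and 0 of 1258 shared regions held one (adjusted p = 0.0176, Fisher's exact test over 42 tests of summits away from promoters). The replicate 4 promoters with a DRE included RpS29, a ribosomal protein gene, Rack1, a ribosome-associated scaffold gene, and kibra, an upstream gene of the Hippo growth pathway that held 2 copies in its window. In replicate 2 they included EMC3, a subunit of the endoplasmic reticulum membrane complex, PolA1, the catalytic subunit of DNA polymerase alpha, and AlaRS, the alanyl-tRNA synthetase gene.

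**Figure D4:**
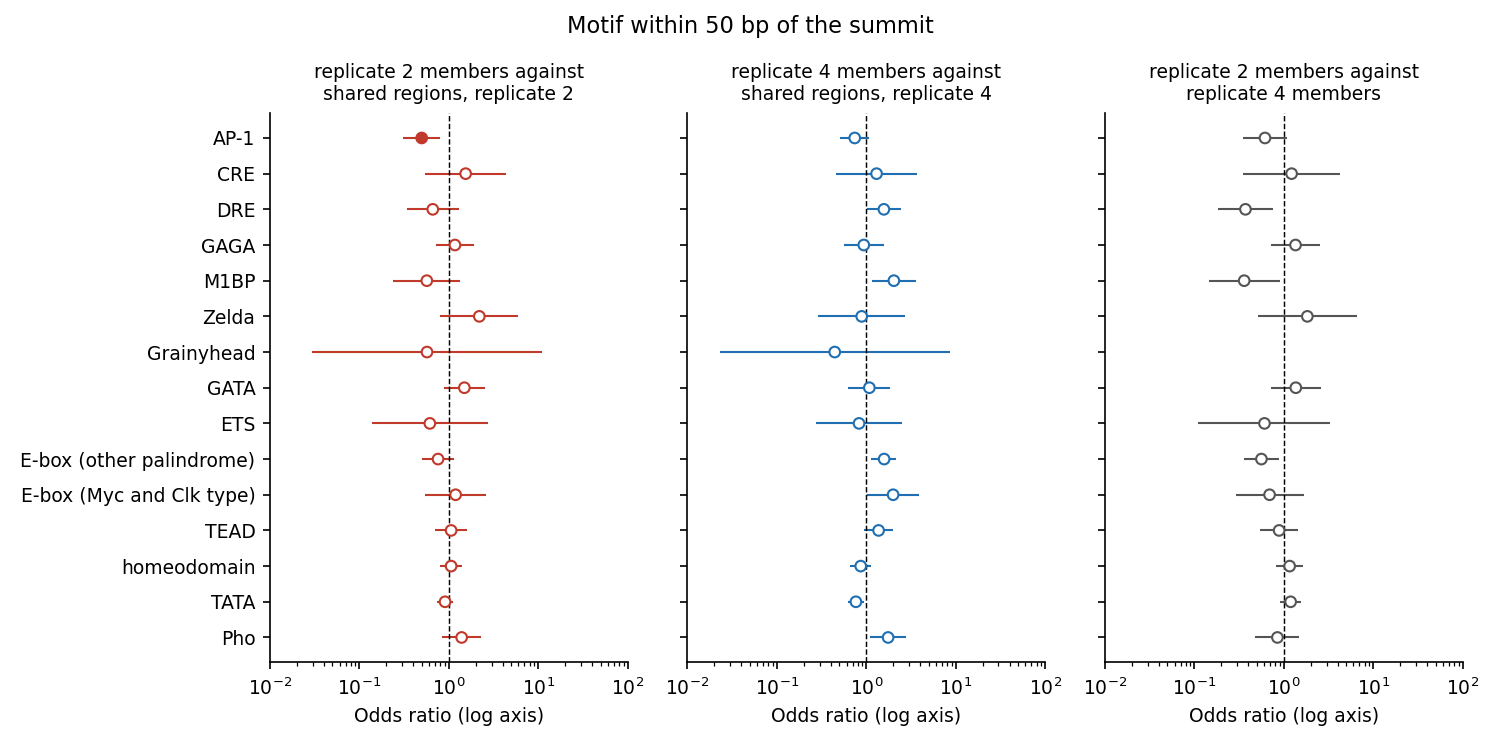
Odds ratios (points, log axis) with 95% intervals (lines) for each motif within 50 bp of the summit, for replicate 2 members against shared regions, replicate 4 members against shared regions, and replicate 2 members against replicate 4 members. The filled point, AP-1 in replicate 2 members, is the only one past the adjusted threshold; no point is drawn where neither set held the motif.

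Base composition differed between the 2 sets of members. The 101 bp around the summit had a median GC content of 35.6% in replicate 2 members and 39.6% in replicate 4 members, against 35.6% in the shared regions of both lists, beside 38.6% and 39.6% in all candidates of replicates 2 and 4. Windows above the median GC of all candidates of the list made up 436 of 940 replicate 4 members (46.4%, interval 43.2 to 49.6), against 1013 of 2920 shared regions (34.7%) and 47.9% of all replicate 4 candidates, an odds ratio of 1.63 (1.40 to 1.89, adjusted p = 1.2e-09, Fisher's exact test adjusted over 12 tests). For replicate 2 members they were 293 of 773 (37.9%), against 1187 of 3087 shared regions (38.5%), beside 48.6% of all candidates (odds ratio 0.977, 0.831 to 1.15, adjusted exact p = 0.965). The odds ratio of replicate 2 over replicate 4 members was 0.706 (adjusted p = 0.00117, Fisher's exact test), or 0.620 with the pooled median of 39.6% as the threshold for both.

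The replicate 4 members' GC content was thus near that of all candidates and above that of shared regions, and the difference from shared regions held in both kinds of location. At promoters 49.6% of replicate 4 members were above the median, against 36.2% of shared regions (adjusted p = 1.3e-06, Fisher's exact test). Away from promoters it was 43.3% against 32.8% (adjusted exact p = 0.00031). Within ranks 1931 to 3860 it was 46.8% against 39.0% (adjusted p = 0.00236, Fisher's exact test). AP-1 sites were more common in high-GC windows in all 4 sets. Among high-GC windows 6.65% of replicate 4 members and 3.75% of replicate 2 members had a site, against 10.6% and 8.76% of the shared regions of their lists. Among low-GC windows these were 1.59% and 1.67%, against 2.41% and 2.37%. The part of GC content in the motif shares was not tested further.

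Soft-masked sequence, which marks repeats and low complexity, was less common in replicate 4 members than in shared regions, and about as common as in all candidates of the list (59.9%). It touched 560 of 940 of their windows (59.6%), against 1934 of 2920 in shared regions (66.2%, odds ratio 0.751, 0.646 to 0.874, adjusted p = 0.00091, Fisher's exact test). In replicate 2 members it touched 513 of 773 (66.4%), against 2043 of 3087 shared regions (66.2%), beside 61.4% of all candidates. Within ranks 1931 to 3860 the replicate 4 difference did not pass (60.0% against 63.6%, adjusted exact p = 0.158). Another top region of the same list lay within 1 kb of 19.9% of replicate 2 members and 21.2% of replicate 4 members, against 34.9% and 26.9% of shared regions. That share depends on the ranking and is given without a test. A tRNA, snRNA or snoRNA gene lay within 500 bp of 9 replicate 2 members (1.16%), against 17 shared regions (0.551%), and of 5 replicate 4 members (0.532%), against 17 (0.582%), and 0 of the 3 exact tests passed.

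The X chromosome held fewer replicate 2 members than replicate 4 members. It held 101 of 773 (13.1%, interval 10.8 to 15.6) in replicate 2 and 174 of 940 (18.5%, interval 16.1 to 21.1) in replicate 4, an odds ratio of 0.662 (0.507 to 0.863, adjusted p = 0.0419, Fisher's exact test adjusted over 18 arm tests). Shared regions stood between, at 16.2% and 16.5%, beside 16.6% and 16.0% of all candidates of replicates 2 and 4. Neither set of members differed from shared regions past the threshold (adjusted exact p = 0.314 and 0.658). The difference between the 2 sets of members was the single arm call of 18. It was lost under 9 of 13 alternatives, all in the same direction, among them ranks 1931 to 3860 (adjusted exact p = 0.213) and full-width regions alone (adjusted exact p = 0.0513).

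Away from promoters, replicate 2 members lay on X less often than shared regions. There 57 of 436 (13.1%) lay on X, against 266 of 1318 shared regions (20.2%, odds ratio 0.595, 0.437 to 0.810, adjusted p = 0.0142, Fisher's exact test). At promoters it was 44 of 337 (13.1%), against 233 of 1769 (13.2%, adjusted exact p = 1.00), and whether location changes the odds ratio was not tested. Replicate 4 members had 19.0% on X at promoters, against 13.4% of shared regions, which did not pass (adjusted exact p = 0.0652), and 18.1% elsewhere, against 20.7%. Of all candidates, 16.1% at promoters and 16.9% elsewhere lay on X in replicate 2, and 16.0% in both places in replicate 4. Away from promoters the shared regions thus stood above all candidates in both lists. The split of X by location was chosen after the data were seen.

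**Figure D5:**
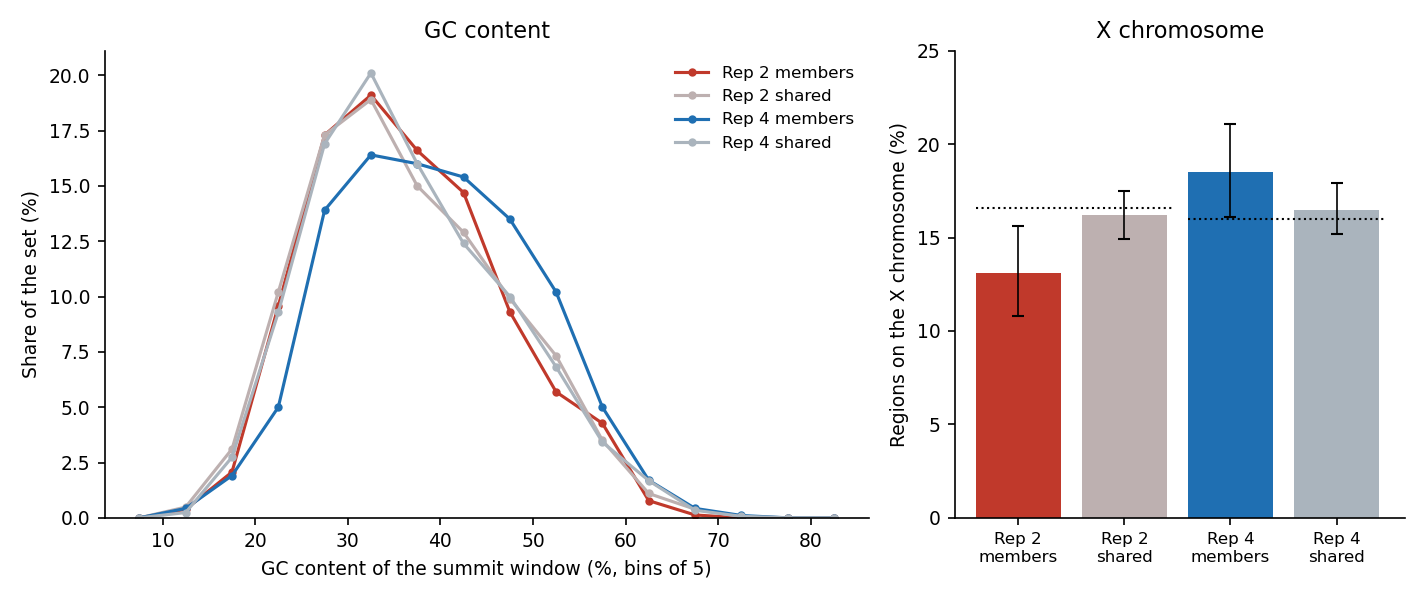
Left, GC content of the 101 bp summit window in bins of 5% (x axis) and the percent of each set in the bin (y axis); right, percent of regions on the X chromosome with exact 95% binomial intervals and dotted lines for all candidates of each list. The curve of replicate 4 members lies to the right of the other 3, and the X share is 13.1% in replicate 2 members and 18.5% in replicate 4 members.

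Members and shared regions were also set side by side by their nearest genes. The 773 replicate 2 members were nearest to 685 genes and the 940 replicate 4 members to 834. For 285 replicate 2 members (36.9%) and 363 replicate 4 members (38.6%) the nearest gene was also nearest to a shared region. By gene, 456 of the 685 and 543 of the 834 had no shared region. Over all genes nearest to a candidate, 2213 of 8481 in replicate 2 (26.1%) and 2196 of 8833 in replicate 4 (24.9%) had a shared region. The sets had 128 nearest genes in common, which is 18.7% of those of replicate 2 and 15.3% of those of replicate 4. Of all genes nearest to a candidate of the list, 9.44% had a replicate 4 member and 8.08% a replicate 2 member, so both shares were above these. Within 1 kb of a member of the other set lay 55 members of each set.

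Gene lists are described by counts, without a test, beside all protein-coding genes. Of genes with any candidate summit within 1 kb of a TSS, 541 of 8414 (6.43%) had a replicate 2 member there and 757 of 8508 (8.90%) a replicate 4 member. In JNK signalling 4 of 19 listed genes had a replicate 2 member (21.1%) and 4 of 18 a replicate 4 member (22.2%). The replicate 2 members lay at grnd (ranks 2288 in replicate 2 and 4821 in replicate 4), at egr (2984 and 6747), at the kinase gene Btk (3030 and 6528) and at the adaptor gene Traf4 (3351 and 5146). These are the ligand, the receptor and an adaptor of the TNF branch. The replicate 4 members lay at puc (ranks 1935 in replicate 4 and 6609 in replicate 2), at msn, the kinase at the head of the cascade (2136 and 9278), at wnd, a MAP3K gene (2821 and 13440), and at grnd (3009 and 8125). The msn region lay 8 bp from the start of RpL8, its nearest gene. Btk, puc and wnd also had a shared region within 1 kb. Where a list had 5 or fewer genes with a member, those past its 2 best ranked were named after their values were seen.

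The grnd locus held a member of each set at separate places. The replicate 2 member spanned 2L 18484566 to 18485049 and was nearest to the start of CG10283, and the replicate 4 member spanned 2L 18485579 to 18485978, nearest to grnd itself. The same occurred at crc, the fly ATF4, with ranks 3180 in replicate 2 and 4714 in replicate 4 for the replicate 2 member, and ranks 2784 in replicate 4 and 21557 in replicate 2 for the replicate 4 member.

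Of kay, Jra and the AP-1 target puc, kay and puc held members, all of replicate 4. By nearest TSS, 92 of the 834 genes with a replicate 4 member had 2 or more. kay had 0 replicate 2 members and 2 replicate 4 members within 3 kb, both intronic, at 3R 29768841 to 29769240 (ranks 2187 in replicate 4 and 21810 in replicate 2) and 3R 29786396 to 29786795 (2822 and 4530). The same gene held shared regions with ranks as high as 23 in both lists. Jra had no member. puc had 2 replicate 4 members and 0 replicate 2 members, the promoter region above and the 133 bp region nearest to CG7878, beside shared regions up to rank 46 in replicate 2 and 36 in replicate 4.

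Known AP-1 and JNK targets had 1 replicate 2 member in 16 genes, at Timp, the metalloprotease inhibitor gene (ranks 2392 and 4676 in replicates 2 and 4), and 3 replicate 4 members in 16. The replicate 4 genes were puc, the matrix metalloprotease gene Mmp1 (3159 in replicate 4 and 5021 in replicate 2) and the ETS factor gene Ets21C (3182 and 6091), and each of the 3 genes also had a shared region. Epidermal wound response genes had 0 replicate 2 members and 4 replicate 4 members in 13 genes. These were msn, Ets21C, the PDGF/VEGF receptor gene Pvr (3359 and 7131) and the receptor tyrosine kinase gene Cad96Ca (3499 and 3980). The msn region was the one nearest to RpL8.

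Dorsal closure and junction genes had members in both sets. Dorsal closure genes had 4 of 27 in replicate 2 (14.8%) and 2 of 28 in replicate 4 (7.14%), while 48.1% and 46.4% of them had a shared region. The replicate 2 ones were shg, the E-cadherin gene, with the widest gap (2719 in replicate 2 and 14111 in replicate 4), the BMP receptor gene tkv (3389 and 5145), pyd, a junction scaffold (3468 and 3898), and the integrin gene if (3695 and 5093). The replicate 4 ones were the integrin gene mys (2891 in replicate 4 and 10493 in replicate 2) and zip, non-muscle myosin II (3486 and 10442). Septate junction genes had 3 of 18 in replicate 2, at Atpalpha, scrib (2962 and 3920) and cora (3261 and 5900), and 1 of 17 in replicate 4, at Gli (3036 and 3938).

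Of cell cycle and replication genes with a candidate, 5 of 32 had a replicate 2 member (15.6%) and 3 of 29 a replicate 4 member (10.3%). In replicate 2 they were Dref, the DRE-binding factor, whose region also lay within 1 kb of a start of RpL13 (ranks 1766 in replicate 2 and 4511 in replicate 4), E2f1 (1996 and 5688), CycB (2532 and 6808), the helicase subunit Mcm5 (2656 and 4741) and the anaphase activator fzy (2806 and 6009). In replicate 4 they were polo (1623 in replicate 4 and 8488 in replicate 2), Cdk1 (2968 and 10499) and Cdk4 (3593 and 4744). All 8 lay at promoters, and the Mcm5 region was nearest to the start of Art1.

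Ribosomal protein genes appeared in both sets. Cytoplasmic ribosomal proteins had 9 of 86 genes with a replicate 2 member (10.5%) and 9 of 87 with a replicate 4 member (10.3%). RpL13 and RpS4 (1782 in replicate 2 and 4188 in replicate 4) led in replicate 2, and RpS29 and RpL8 (2136 in replicate 4 and 9278 in replicate 2, the region also counted for msn) in replicate 4. The counterparts of the 9 replicate 2 regions had ranks between 3922 and 5883 in replicate 4, and those of the 9 replicate 4 regions had ranks between 3923 and 24579 in replicate 2. Mitochondrial ribosomal proteins had 1 of 63 genes with a replicate 2 member (1.59%), mRpL42, and 9 of 66 with a replicate 4 member (13.6%), led by mRpS5 (1436 in replicate 4 and 5027 in replicate 2) and mRpL47 (1891 and 7492). The mRpL47 region was nearest to CG8176, and those of mRpS7, mRpL27, mRpL51, mRpL11 and mRpL3 to Cdk1, CG15435, Uba4, HtrA2 and Graf. The mRpS7 region is the one also counted for Cdk1. The replicate 4 count depends on the rule that ties regions to genes, at 14 within 2 kb and 3 by nearest TSS.

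Of the other bZIP factor genes, 2 of 17 had a replicate 2 member, crc and the clock gene Pdp1 (3507 in replicate 2 and 4835 in replicate 4). A replicate 4 member lay at 3 of 17, crc, CrebB (3232 in replicate 4 and 9121 in replicate 2) and the oxidative stress factor cnc (3254 and 4693). Shared regions lay at 52.9% of these genes in both lists. Histone and chromatin regulators had 0 of 22 in replicate 2 and 2 of 22 in replicate 4, at the gene of the heterochromatin protein HP1 (3671 and 6806) and ph-p (3714 and 4017). Heat shock genes had 2 of 10 in replicate 2 (Hsp60A and Hsp68) and 1 of 10 in replicate 4 (Hsp110). Hox genes had 0 of 7 in replicate 2 and 1 of 7 in replicate 4 (Dfd, 3106 in replicate 4 and 11120 in replicate 2), but by nearest TSS, which adds regions far from a start such as that of Abd-B, they had 3 of 8 in replicate 2 and 4 of 8 in replicate 4. Muscle structure genes had 1 of 12 in replicate 2 (sls) and 0 of 13 in replicate 4, and Cpr cuticle genes 1 of 11 in replicate 2 (Cpr73D) and 0 of 13 in replicate 4. Nervous system genes had 2 of 6 in replicate 2 (insc and Csp) and 1 of 8 in replicate 4 (Csp again). Chemoreceptor genes had 0 of 26 in replicate 2 and 3 of 30 in replicate 4, and each of these 3 regions was nearest to another gene (MtnB, CG11594 and Idua). In replicate 2 this also held for Hsp68 (nearest to SMC1), Cpr73D (Ogdh) and insc (sktl). In replicate 4 it held for the HP1 gene (Ssb-c31a), crc (Mondo) and Csp (CG11523). Gap and pair-rule genes (9 and 9), tracheal genes (7 and 6) and Osiris genes (4 and 7) had 0 members within 1 kb in both sets. By nearest TSS replicate 2 members lay at 2 of 10 tracheal genes and 1 of 13 gap and pair-rule genes, and within 2 kb at 1 of 8 tracheal genes.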

How the data were processed

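ChIP-seq of GFP-tagged kay was measured in 2 replicates of 0 to 24 h embryos. The files are the authors' narrowPeak candidate lists for dm6 (30000 regions for each replicate and for both pooled) and their IDR list, made from alignments and 1 control file, per the descriptions deposited with the samples. Which aligner and peak caller were used is not given in the sources. The deposited signal values set the ranks within a list, and their scaling between lists is not stated, so signals are not compared between lists. The deposited −log10 q value sat at its highest value in 3828 replicate 2 and 2874 replicate 4 candidates and was not used for ranking. With no read counts, intervals cover counting of regions only.

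Members followed the rule given in the report. The members, gene lists and motifs were chosen with earlier results of these data known. Coordinates are 1-based in dm6, and sequence and soft-masking are from RefSeq's Release 6 assembly. The 13945 protein-coding genes and 19607 TSSs on 6 arms are from Ensembl release 115. Summits were placed as promoter (within 500 bp of a TSS), otherwise as 5′ untranslated, coding exon, 3′ untranslated, intronic and last intergenic. Both strands of the summit ± 50 bp were searched for these motifs: AP-1 (letters TGACTCA or the complement TGAGTCA), a CRE with the letters TGACGTCA, the DRE with TATCGATA, a GAGA site with GAGAGAG, M1BP with GGTCACAC, Zelda with CAGGTAG, Grainyhead with AACCGGTT, a GATA site with AGATAAG, ETS with CCGGAAG, E-boxes with CAGCTG and with CACGTG as separate motifs, TEAD with GGAATG, homeodomain with TAATTA, Pho with GCCATTT, and the TATA box as TATAAA. Shares were compared by two-sided Fisher's exact tests with Woolf intervals and Benjamini-Hochberg adjustment within families (location 18, AP-1 3, other motifs 42, features 12, arms 18 tests; threshold 0.05), with scipy 1.17.1, numpy 2.4.6 and pandas 2.3.3 in Python 3.11.15. The feature family includes tests of small RNA genes within 500 bp and of neighbouring top regions, of which the second rests on the ranking and is given without its p. Finding members and testing shares was checked on simulated regions.

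Named genes are, per set, those nearest to the 12 strongest members, the 6 strongest with no overlapping candidate in the other list, the 6 strongest with an AP-1 site, up to 2 per gene list, kay, Jra and puc within 3 kb, and the 3 regions on each side of the threshold. Genes with DREs, further genes of short lists and genes with several members were named after their values were seen. Of the 19 gene lists, 3 genes were not matched (tango, dys, dp).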

Additional observations from a re-analysis of the deposited data

How the results depend on the processing

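Of 441 values recomputed under alternatives, 345 kept their direction and their side of the threshold, or stayed close to the first value; values below are counts or odds ratios, and the cause of a change was not tested. Some alternatives were chosen after seeing the data (subsets by GC, a common GC threshold, regions of full width or recentred on 200 bp, and GC, repeats and X by location). Members numbered 1237 (replicate 2) with summits within 100 bp required, 380 and 453 (replicates 2 and 4) with 1930 top regions, and 1723 and 2154 with 7720. The promoter difference of replicate 2 members passed in every alternative. That of replicate 4 did not pass with 1930 top regions (0.845), at ranks 1931 to 3860 (0.860) or in high-GC windows (0.765). Replicate 2 against 4 turned with 7720 regions (1.05) and passed with a 250 bp window (0.725). For AP-1, replicate 2 members no longer passed with 50% overlap (0.715), at ranks 1931 to 3860 (0.581), without a counterpart in 7720 (0.812), without an IDR peak (0.963), at full width (0.558), at promoters (0.473) or in low-GC windows (0.699). Replicate 4 members passed with a 100 bp window (0.715), at promoters (0.270) and in high-GC windows (0.603), and turned away from promoters (1.08). Between the sets AP-1 passed with 1930 (0.308) and 7720 regions (0.569) and away from promoters (0.406), and turned without an IDR peak (1.28), at promoters (1.62) and in low-GC windows (1.05). The GC difference of replicate 4 members passed in all 14 alternatives. That of replicate 2 turned with 50% overlap (1.07), summits within 100 bp (1.24), 1930 (1.19) or 7720 regions (1.12), 1 region per cluster (1.09), no counterpart (1.26) and no IDR peak (1.10). Between the sets it was lost with 1930 (0.957) and 7720 regions (0.897), no counterpart (0.825) and away from promoters (0.752). Soft-masking of replicate 2 members turned with summits within 100 bp (0.948), 1930 (0.899) and 7720 regions (0.946), clusters (0.967), no counterpart (0.972), recentred regions (0.996) and promoters (0.857). For replicate 4 it was lost with 50% overlap (0.848), 1930 regions (0.810), ranks 1931 to 3860 (0.860) and no counterpart (0.799). Between the sets it was lost with 50% overlap (1.22), 1930 (1.17) and 7720 regions (1.12), no counterpart (1.21), no IDR peak (1.36) and at promoters (1.16). The X share of replicate 2 members passed with summits within 100 bp (0.673), 1930 regions (0.586) and away from promoters (0.595), and that of replicate 4 turned in the first (0.979) and the last (0.846). Between the sets it was lost with 7720 regions (0.817), ranks 1931 to 3860 (0.698), no counterpart (0.510), no IDR peak (0.758), members over 1 kb from the other top list (0.657), recentred (0.673) or full-width regions (0.667), at promoters (0.642) and elsewhere (0.682). Other motifs, 0 at first, gave 1 call each for replicate 2 with summits within 100 bp (GAGA), for replicate 4 with summits within 100 bp and 7720 regions (TATA) and away from promoters (DRE), and between the sets with 50% overlap and summits within 100 bp (DRE). Motifs that passed no test changed direction for DRE in replicate 2 (3.03 away from promoters, 1.11 in low GC) and replicate 4 (0.901 with 7720), for CAGCTG in replicate 2 (1.17 with 1930, 1.02 at promoters), and for TATA in replicate 2 (1.05 at ranks 1931 to 3860, 1.32 in high GC), replicate 4 (1.12 in high GC) and between the sets (0.986 with 1930, 0.975 with no counterpart). By another gene assignment, JNK genes numbered 2 in replicate 2 (500 bp) and 8 in replicate 4 (nearest TSS), cytoplasmic ribosomal proteins 15 in replicate 4 (2 kb), and mitochondrial ones 4 in replicate 2 (2 kb) and 14 (2 kb) or 3 (nearest TSS) in replicate 4. Neither replicate could be left out, since the rule needs both. No paired analysis was possible because both libraries form 1 group. Read depth is unknown, so counting error in signals and ranks could not be given.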

Other observations

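Some genes gathered several members of 1 set; they were chosen after their values were seen. In replicate 2, 76 genes had 2 or more members nearest to them and 11 had 3 or more. Genes with 3 replicate 2 members included the growth regulators Myc (ranks 2840 to 3491) and Mnt (1436 to 3238), the ecdysone-induced nuclear receptor gene Eip75B (1688 to 2500), the ETS factor gene pnt of EGF receptor signalling (2046 to 3715), corto (2242 to 3070) and the RNA-binding protein gene Hrb27C (2593 to 3837). SIFaR and Hrb27C had 0 shared regions in the replicate 2 list.

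In replicate 4, 92 genes had 2 or more members and 12 had 3 or more. tou, a chromatin remodelling gene, had 5 replicate 4 members at ranks 1992 to 3252, all intronic, beside 2 shared regions and 2 replicate 2 members. Thor, the translation inhibitor 4E-BP, had 3 (2460 to 2949) and PIP82 3 (2564 to 3555), both with 0 shared regions. CrebB (1958 to 3279), Hr4 (1639 to 3784), the splicing kinase gene Doa (1782 to 3032), the syntaxin gene Syx1A (1966 to 3284) and bun (1460 to 3625) had 3 each beside shared regions. Overlapping regions were counted singly, so 2 members at 1 gene can share sequence.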
